A study of Canis lupus familiaris with 4 samples.

Results

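The genes described here write, read and erase DNA methylation: DNMT1, UHRF1, DNMT3A and DNMT3B on the writing side, TET1, TET2 and TET3 as erasers, and MBD1 and MBD2 as readers. They were picked by name, and every captured region that the deposited tables assign to one of these 9 genes was taken, out of 21789 genes named in either table. This gave 49 of the 82247 regions of CLBL-1 and 86 of the 123421 regions of CLBL-1 8.0. CLBL-1 is a line of dog B cell lymphoma of the diffuse large cell type, from a lymph node and a stage IV tumour. CLBL-1 8.0 is its doxorubicin-resistant descendant, grown with 8 µM of the drug in the medium, while CLBL-1 was grown without it. DNA of each line was captured with a protein that binds methylated DNA (MethylCap-seq) and released at a low and at a high salt concentration, giving 4 libraries and no replicates; the labels call these fractions low-methylated and medium to high-methylated. Each line has a single region table that does not separate the eluates, and without replicates differences between lines and differences between libraries cannot be told apart.

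Cytosines in CpG pairs are methylated de novo mainly by DNMT3A and DNMT3B. After replication, UHRF1 recognises DNA methylated on a single strand and brings in DNMT1, which copies the mark to the new strand. TET enzymes oxidise methylcytosine and so start its removal, and MBD1 and MBD2 bind methylated CpGs and recruit repressor complexes. In human blood cancers, TET2 and DNMT3A are recurrently mutated. The data concern methylation in the DNA of these genes, and neither their expression nor the activity of their proteins was measured.

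All 9 genes had captured regions in both lines, and each had more regions in the CLBL-1 8.0 list. Of 17395 protein-coding gene symbols, 63.0% had a captured region in the CLBL-1 list and 76.3% in that of CLBL-1 8.0. Of the 10774 protein-coding genes with a region in both lists, 59.3% had more in CLBL-1 8.0. Of the 13458 with a region in either list, 66.0% had more there and 8.98% fewer. The number of regions of the 9 genes was 1.76 times as high in CLBL-1 8.0, against 1.53 times for all regions with a named gene (56848 and 87053). The writers had 32 and 42 regions, a ratio of 1.31, the erasers with 13 and 33, a ratio of 2.54, and the readers with 4 and 11, a ratio of 2.75. The ratio of the writers was thus below that of all named genes, and the ratios of the TET and MBD genes were above it. The ratio of the MBD genes rests on 4 CLBL-1 regions. Neither MBD gene had more regions in CLBL-1 8.0 at the equal list lengths described below.

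The numbers depend on how far down each list is read. When CLBL-1 8.0 was limited to as many regions as CLBL-1 by descending fold enrichment, the 9 genes kept 55 of their 86 regions. The whole list kept 82247 of 123421. DNMT3A, UHRF1 and MBD2 then had fewer regions than in CLBL-1, and DNMT3B and MBD1 had equal numbers. The proportion of all genes with fewer regions at this cut was not computed. Fold enrichment here is a linear ratio that the authors give per region. No source says that the lists were normalised to each other, so folds of both lines are set side by side without reading a change from them. A percentile is the rank of a fold within its own list. How deeply each library was sequenced is not known, and a stretch without a region is not evidence of unmethylated DNA.

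**Figure D1:**
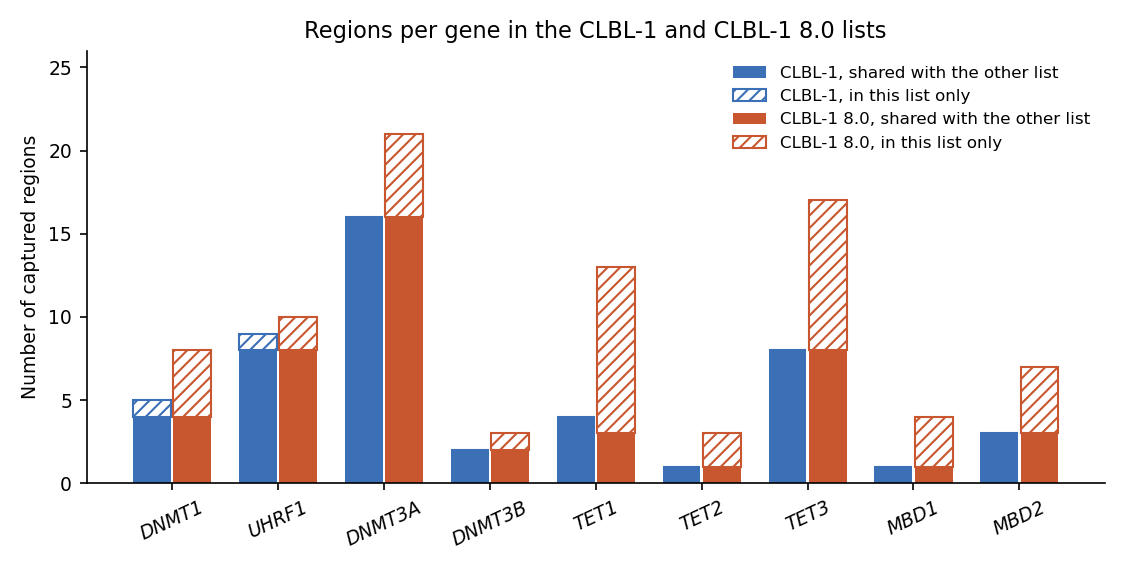
Number of captured regions assigned to each gene (vertical axis) in CLBL-1 (blue, left bars) and CLBL-1 8.0 (orange, right bars), with hatching for regions that share no base with the other list. TET1 and TET3 had the largest numbers of regions in the CLBL-1 8.0 list only, at 10 and 9, while UHRF1 had 9 and 10 regions in all.

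Most CLBL-1 regions of these genes had a counterpart in the longer CLBL-1 8.0 list. Of the 49 CLBL-1 regions, 47 shared at least 1 bp with a CLBL-1 8.0 region (95.9%, Wilson 95% interval 86.3 to 98.9, counting error only), against 91.0% of all CLBL-1 regions. The exceptions were a DNMT1 region and a UHRF1 region. At equal list lengths 30 of the 49 were shared, and above the pooled median fold of 5.28 it was 16 of 30. The proportion of all regions shared at these cuts was not computed, so nothing particular to these genes is read from them. Of the 86 CLBL-1 8.0 regions, 46 were shared (53.5%, 43.0 to 63.7), against 61.6% of all regions of that list. The interval holds the value of the whole list. The other 40 were in CLBL-1 8.0 only. Of these, 29 (72.5%) were intronic, against 68.7% of all unshared regions with a named gene in that list, and 34 (85.0%) lay outside CpG islands and their shores, the stretches that flank an island, against 88.7% of all unshared regions. Both shares were near the background.

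None of the regions of these genes met a CpG island. The count was 0 of 49 in CLBL-1, which allows a share of up to 6.12%, and 0 of 86 in CLBL-1 8.0, which allows up to 3.49%, where islands took 13.9% and 10.2% of all regions. Regions outside islands and shores made up 77.6% (64.1 to 87.0) of the CLBL-1 regions of these genes and 81.4% (71.9 to 88.2) of those in CLBL-1 8.0, against 46.8% and 62.5% of all regions. Of all regions of these genes, 28 (57.1%) and 57 (66.3%) were intronic, near the 54.1% and 59.6% of all regions with a named gene, and 11 and 15 lay in coding exons. Coding exons took 22.4% (13.0 to 35.9) and 17.4% (10.9 to 26.8), against 12% and 10.6% of the same. The class can differ between the lists for a shared region. A UHRF1 region at 54866968 to 54867442 was intronic in CLBL-1, and its counterpart in CLBL-1 8.0 was coding. A DNMT3B region at 22111352 to 22111625 was coding in CLBL-1, and its counterpart in CLBL-1 8.0 was intronic.

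**Figure D2:**
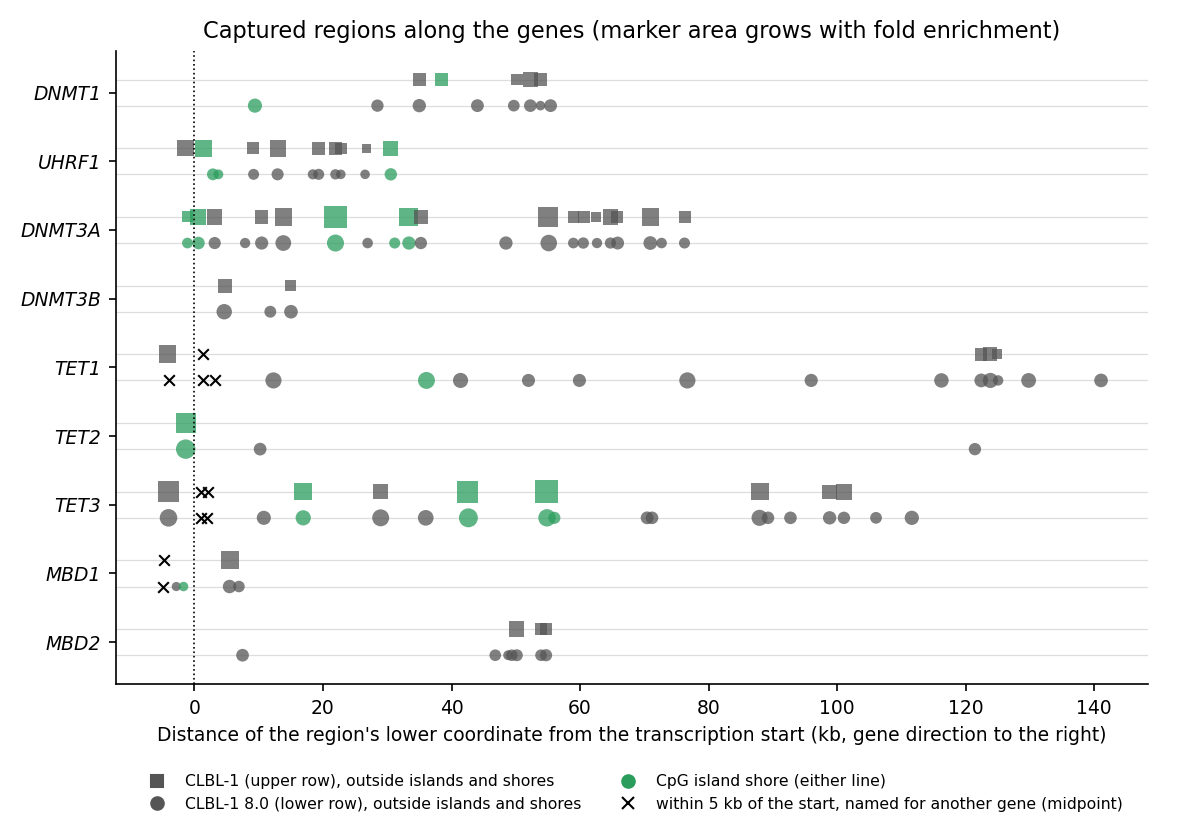
Distance of each region's lower coordinate from the transcription start of its gene, in kb and in the direction of the gene, with CLBL-1 as squares in the upper row of each gene and CLBL-1 8.0 as circles in the lower row. Marker area grows with fold enrichment, green marks CpG island shores, and crosses are regions near the start that the tables name for another gene. The stretch of TET1 without a region named for it in CLBL-1, before the region starting at 122377 bp, holds 8 regions of CLBL-1 8.0.

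Positions are on the CanFam3.1 assembly. DNMT1, the maintenance methyltransferase gene on chromosome 20, had 5 regions in CLBL-1 and 8 in CLBL-1 8.0, and 4 of each were shared. None carried a promoter, enhancer or island mark. In CLBL-1 the region nearest to the transcription start began 34981 bp into the gene, so the first part of the gene held no region. In CLBL-1 8.0 an intronic shore region at 50881627 to 50881957 began 9414 bp after the start, with a fold of 6.01, the highest of DNMT1 in that list. The highest of DNMT1 in CLBL-1 was 6.49, at 50924481 to 50924841, an intronic region that had a fold of 4.68 in CLBL-1 8.0. A further shore region of CLBL-1, at 50910653 to 50911589 with a fold of 5.30, had no counterpart, and the nearest CLBL-1 8.0 region was 3137 bp away. The other regions in CLBL-1 8.0 only were intronic at 50900685 to 50901040 (fold 4.43) and 50916243 to 50916549 (4.85) and coding at 50927626 to 50927986 (4.83).

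UHRF1, on the minus strand of the same chromosome, was the gene whose number differed least, in ratio, between the lists, with 9 regions in CLBL-1 and 10 in CLBL-1 8.0. Its 1 promoter region was in CLBL-1 only. That region (54891140 to 54891617) lay 1371 to 1848 bp upstream of the start, outside islands and shores, with a fold of 8.21, which was at percentile 67.4 of the CLBL-1 list. In CLBL-1 8.0 the nearest regions were 2391 bp away on the gene side and 4914 bp away on the other, the second one in the neighbouring gene ARRDC5. A promoter region in CLBL-1 only was found for 2.41% of the protein-coding symbols.

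Just inside UHRF1 both lists held a shore region with an enhancer mark. In CLBL-1 it was 403 bp long (54888393 to 54888795) with a fold of 8.55. In CLBL-1 8.0 it was 1855 bp long (54886895 to 54888749) with a fold of 4.04, and a second enhancer-marked shore region, 54886044 to 54886495, had a fold of 2.62. The captured stretch behind the start was longer in the full CLBL-1 8.0 list, but neither of its regions there was kept at equal list lengths. That cut shortens only the CLBL-1 8.0 list, so the CLBL-1 region stays by design. The folds of UHRF1 ranked low within that list, from 2.45 to 4.47 with a median at percentile 13.5, and ran from 2.23 to 8.80 in CLBL-1 with a median at percentile 41.8. The highest was an intronic region in CLBL-1 (54876768 to 54877408) and a shore region of the 3′UTR in CLBL-1 8.0 (54859217 to 54859698). A coding region at 54871346 to 54871644, with a fold of 2.84, had no CLBL-1 counterpart. At equal list lengths UHRF1 had 7 fewer regions in CLBL-1 8.0 than in CLBL-1.

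DNMT3A, a de novo methyltransferase gene on the minus strand of chromosome 17, had the most regions of the 9 genes, 16 in CLBL-1 and 21 in CLBL-1 8.0. All 16 CLBL-1 regions were shared. It was also the only one of the 9 genes with a region on its transcription start in either list. That region (19562494 to 19563106 in CLBL-1) lay at an island shore with promoter and enhancer marks, and had a fold of 7.72 in CLBL-1 and 4.62 in CLBL-1 8.0. A second shore region with the same marks lay 1088 bp upstream at its near edge, with folds of 3.43 and 3.21.

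Further enhancer-marked regions of DNMT3A reached 3107 bp and 33311 bp into the gene in CLBL-1, with folds of 7.13 and 10.6 there and of 4.32 and 5.23 in CLBL-1 8.0. The same 4 places carried the mark in both lists. The highest fold of DNMT3A, 15.9 in CLBL-1 and 9.01 in CLBL-1 8.0, belonged to an intronic shore region at 19541154 to 19541841. The 5 regions in CLBL-1 8.0 only had folds from 2.92 to 5.24, and 4 of these were intronic and 1 lay in the 3′UTR. With lists of equal length DNMT3A had 5 fewer regions in CLBL-1 8.0.

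DNMT3B, the second de novo methyltransferase gene (chromosome 24), had 2 regions in CLBL-1 and 3 in CLBL-1 8.0, all beginning within 15020 bp of the start and outside islands and shores. The region nearest to the start, 22101090 to 22101420 in CLBL-1, had folds of 6.11 and 7.28. The other shared region had 3.73 and 5.55. Within CLBL-1 8.0 these ranked at percentiles 79.3 and 60.0. The region in CLBL-1 8.0 only, at 22108192 to 22108450, was intronic with a fold of 4.07.

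TET1 and TET3 differed most in number, by 9 regions each. A difference of 9 or more, a limit set after these values were seen, was found for 3.72% of the protein-coding genes with a region in both lists. TET1, on chromosome 4, had 4 CLBL-1 regions and 13 CLBL-1 8.0 regions. Of the 933 protein-coding genes with 4 CLBL-1 regions, the median number in CLBL-1 8.0 was 5 (interquartile range 4 to 7), and 3.54% had at least 13. TET1 kept 8 more regions in CLBL-1 8.0 with lists of equal length and 7 more above the pooled median fold.

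Inside TET1, the CLBL-1 regions named for it lay in the far part of the gene, from 122377 bp after the start. In CLBL-1 8.0, 8 regions without a counterpart began between 12294 and 116220 bp after it, all intronic, with folds from 5.06 to 8.86. The highest of these, at 19795760 to 19796121, was also the only shore region named for TET1. The 3 regions named for TET1 within the gene in CLBL-1 were all shared, with folds of 4.75, 5.77 and 2.71 there and of 5.66, 7.02 and 3.01 in CLBL-1 8.0.

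At the start of TET1 the tables name another gene. A shore region 808 to 1914 bp downstream of the start (19760469 to 19761575) is assigned to LOC106558703 and carries that gene's promoter mark, with folds of 10.2 in CLBL-1 and 7.36 in CLBL-1 8.0. A region 3801 to 4208 bp upstream (19755453 to 19755860) is named for TET1 in CLBL-1, where its fold of 9.72 was the highest of the gene, and its counterpart in CLBL-1 8.0, with a fold of 8.02, is named for LOC106558703. One more region, 3091 to 3378 bp downstream, was in CLBL-1 8.0 only. Counting every region within the span of the TET1 regions, the numbers were 5 and 16.

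TET2, on chromosome 32, had a single region in CLBL-1, and it was a promoter region. It ran from 26020432 to 26021314 at an island shore, 431 to 1313 bp upstream of the start. Its fold was 12.5, at percentile 85.5 of the CLBL-1 list, and the counterpart in CLBL-1 8.0 had 11.9, at percentile 95.7, the highest fold among all 86 regions in that list. The TET2 promoter was therefore captured in both lines and ranked high in both lists. The regions in CLBL-1 8.0 only were intronic (26031967 to 26032225, fold 4.75) and coding (26143175 to 26143595, fold 4.43).

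TET3, on the minus strand of chromosome 17, had 8 regions in CLBL-1 and 17 in CLBL-1 8.0, and all 8 were shared. Of the 220 protein-coding genes with 8 CLBL-1 regions, 10.9% had at least 17 in CLBL-1 8.0. Their median there was 10 (interquartile range 8 to 13). The regions of TET3 had high folds in both lists, with median percentiles of 72.8 and 65.7. The highest in CLBL-1 was a coding shore region at 49028721 to 49029331 with a fold of 16.6, also the highest among the 49, and it had 9.38 in CLBL-1 8.0. The highest in CLBL-1 8.0 was an intronic shore region at 49040830 to 49041919 with 11.3, against 14.8 in CLBL-1, where it carried an enhancer mark that the CLBL-1 8.0 row lacks. The other enhancer-marked region reached 16892 bp into the gene in CLBL-1, with folds of 9.02 and 7.06.

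The 9 regions of TET3 in CLBL-1 8.0 only were spread along the gene and beyond, with lower coordinates 10795 to 111611 bp after the start, with folds from 3.98 to 7.51. Upstream of the gene a long shared region (49087525 to 49088443) lay 4071 to 4989 bp before the start, with folds of 13.7 and 9.56 and no promoter mark. As at TET1, regions just inside the gene are named for a neighbour: those from 686 to 1315 bp (folds 4.69 and 5.12) and from 1723 to 2383 bp (11.8 and 6.53) after the start in CLBL-1 carry the promoter mark of LOC111090655 in both lists. With lists of equal length TET3 kept 8 more regions in CLBL-1 8.0, and 2 more above the pooled median fold.

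MBD1, on chromosome 7, had 1 CLBL-1 region and 4 CLBL-1 8.0 regions. The shared region, 78603166 to 78603721 in a coding exon, had folds of 9.44 and 5.42. The CLBL-1 8.0 list added 2 promoter regions, at 78594866 to 78595268 (fold 2.20) and 78595993 to 78596387 (fold 2.4, at an island shore), which began 2822 and 1695 bp upstream. A promoter region in CLBL-1 8.0 only was found for 9.34% of the protein-coding symbols. These were weak regions, at percentiles 1.33 and 3.16 of their list, and neither was kept with lists of equal length. The fourth region, 78604613 to 78605034, was intronic with a fold of 3.84. A CpG island region named for the neighbouring gene CXXC1 lay 3917 to 5468 bp upstream of the MBD1 start in CLBL-1. It was shared between the lists, with folds of 8.43 in CLBL-1 and 5.15 in CLBL-1 8.0.

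MBD2, on chromosome 1, had 3 regions in CLBL-1 and 7 in CLBL-1 8.0, all outside islands and shores. The 3 shared regions lay at the far end of the gene, 50087 bp or more after the start in CLBL-1, and 2 of these were downstream of it. The first had folds of 7.48 and 4.09, the others 3.8 and 3.91, and 4.01 and 4.31. The highest fold in CLBL-1 8.0, 4.75, belonged to a region in that list only, at 21239745 to 21240003, 7485 bp after the start. The other 3 in that list only began from 46804 to 49378 bp after it, with folds of 3.88, 2.64 and 3.84, and 2 of them were within 1000 bp of a CLBL-1 region.

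By the promoter mark, 3 of the 9 genes had a promoter region in each line: UHRF1, DNMT3A and TET2 in CLBL-1, and DNMT3A, TET2 and MBD1 in CLBL-1 8.0. Among all protein-coding symbols these shares were 28.8% and 35.7%. By position, whatever gene the tables name, 5 genes in CLBL-1 and 6 in CLBL-1 8.0 had a region within 3000 bp of the start, with MBD1 the one added. The corresponding shares of 13458 protein-coding genes with a start in the tables were 55.6% and 68.6%, so both counts were near the background. DNMT1, DNMT3B and MBD2 had no region there in either line.

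In all, 47 regions of each line could be paired one to one. Within its own list, the median percentile of these folds was highest for TET2 (85.5 in CLBL-1, 95.7 in CLBL-1 8.0; 1 pair) and next for TET3 in CLBL-1 8.0 (86.1; 72.8 in CLBL-1; 8 pairs). Over all 71549 one-to-one pairs the medians were 54.7 in CLBL-1 and 59.9 in CLBL-1 8.0. DNMT3A was near that value in CLBL-1 (55.3) and below it in CLBL-1 8.0 (39.9; 16 pairs). UHRF1 was below it in both, with 38.1 and 17.4 in 8 pairs. TET1 had 41.9 and 69.3 in 4 pairs, DNMT3B 35.9 and 69.7 in 2, DNMT1 32.9 and 34.7 in 4, MBD2 24.1 and 29.7 in 3, and MBD1 73.7 and 58.8 in 1. The lists differ in length, so these ranks show no change between lines.

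**Figure D3:**
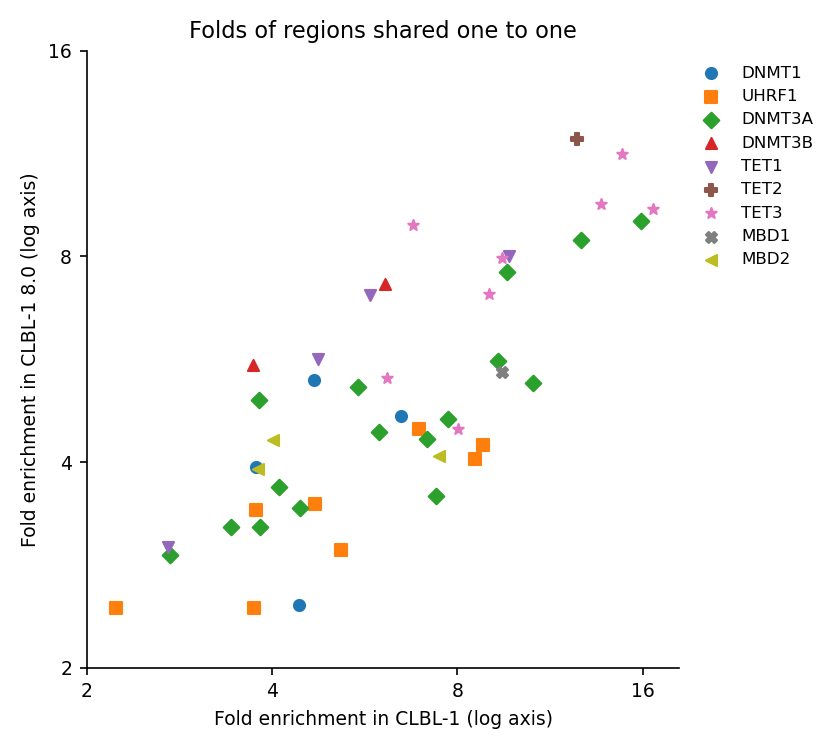
Fold enrichment of 47 one-to-one shared regions in CLBL-1 (horizontal, log axis) and CLBL-1 8.0 (vertical, log axis), with a symbol for each gene. TET3 and DNMT3A hold the regions furthest to the right, at 16.6 and 15.9, and UHRF1 regions stay at or below 4.47 on the vertical axis.

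The regions around each gene were counted within 1 Mb of its start, without the gene's own regions. Around TET1 there were 47 regions in CLBL-1 and 163 in CLBL-1 8.0, a ratio of 3.47 beside 3.25 for TET1 itself. Around TET3 the numbers were 84 and 225, a ratio of 2.68 beside 2.12 for the gene. Both neighbourhoods thus had a larger ratio than the gene. Over 12501 protein-coding genes with at least 20 such CLBL-1 regions the median ratio was 1.60 (interquartile range 1.30 to 1.97). Of these genes, 1.41% and 5.39% had ratios at or above those of TET1 and TET3. TET1 lies in the stretch of chromosome 4 from 19 to 24 Mb, which held 297 and 581 regions, a ratio of 1.96 against 1.5 for the whole lists and below that of its 1 Mb neighbourhood.

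Around UHRF1 the numbers were 406 and 434, a ratio of 1.07 beside 1.11 for the gene, and 9.52% of genes had a ratio as low or lower. DNMT3A (1.31) and DNMT3B (1.5) had ratios below those of their surroundings (1.98 and 1.96), of which DNMT3B rests on 2 CLBL-1 regions. DNMT1 (1.60 beside 1.35), MBD1 (4 beside 1.83), MBD2 (2.33 beside 1.43) and TET2 (3 beside 2) had ratios above them, of which MBD1, MBD2 and TET2 rest on 3 CLBL-1 regions or fewer.

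**Figure D4:**
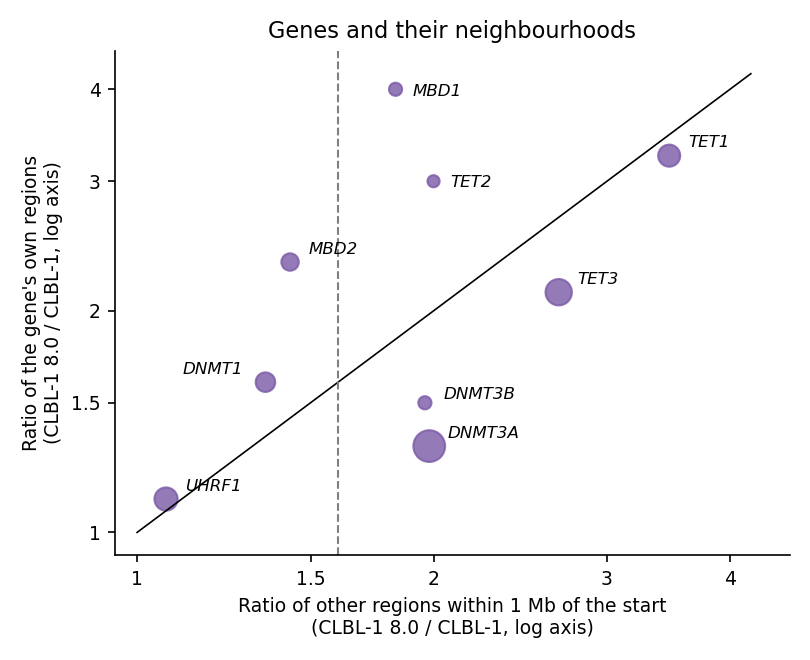
Ratio of region numbers, CLBL-1 8.0 over CLBL-1, for each gene (vertical, log axis) and for the other regions within 1 Mb of its start (horizontal, log axis), with marker area growing with the gene's regions in both lists. The solid line marks equal ratios and the dashed line the median neighbourhood of the 12501 protein-coding genes compared, 1.60. TET1 and TET3 lie furthest to the right, at 3.47 and 2.68, and UHRF1 furthest to the left, at 1.07.

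A wider list of 51 genes held partners of the enzymes, other methyl-CpG binding proteins, base excision and deamination genes, histone-modifying genes linked to methylation, and the folate, methionine and isocitrate metabolism that feeds or modulates methylation. Of these, 33 had a region in CLBL-1, 41 had one in CLBL-1 8.0 and 9 had none, with 108 and 174 regions in all. Of the 32 with a region in both lists, 19 (59.4%) had more in CLBL-1 8.0, 8 had equal numbers and 5 had fewer. The share with more was 59.3% over all protein-coding genes with a region in both lists. The median difference was 1 region, equal to that of the 10774 protein-coding genes. The median difference of the 9 genes was 3, without allowing for how many CLBL-1 regions each had. Each was also set beside protein-coding genes with the same number of CLBL-1 regions. In CLBL-1 8.0, UHRF1 (10) and DNMT3B (3) were at the median of those genes. DNMT1 (8), DNMT3A (21) and TET2 (3) were within their interquartile ranges of 5 to 8, 15 to 22.2 and 1 to 3. MBD1 (4), MBD2 (7), TET1 (13) and TET3 (17) were above theirs. Unlike the 9 genes, the wider list met islands, with 23 CLBL-1 regions (21.3%, 14.6 to 29.9) and 25 CLBL-1 8.0 regions (14.4%, 9.93 to 20.3). Islands took 13.9% and 10.2% of all regions, and 14.7% and 10.6% of those with a named gene. The intervals hold the shares of regions with a named gene.

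Promoter regions were found for 11 of the 51 genes in CLBL-1 (21.6%) and 15 in CLBL-1 8.0 (29.4%), with 10 in both. The shares of all protein-coding symbols were 28.8% and 35.7%. The genes with a promoter region in a single list, 1 in CLBL-1 and 5 in CLBL-1 8.0, compare with 2.41% and 9.34% of all symbols and were near that background. D2HGDH, which encodes a hydroxyglutarate dehydrogenase, was the 1 gene with a promoter region in CLBL-1 only, with a fold of 2.19 in an island. The 5 in CLBL-1 8.0 only were MAT2A, the gene of the S-adenosylmethionine synthetase subunit of most tissues (fold 5.70), USP7, a deubiquitinase that acts on UHRF1 and DNMT1 (5.68), SETDB1, a histone H3 lysine methyltransferase (5.67), CXXC1, a CpG-binding protein gene next to MBD1 (3.65), and ZBTB4, a methyl-CpG binding zinc finger gene (8.07), whose region was shared with CLBL-1. The genes with the most regions were EHMT1 (8 and 17), USP7 (11 in each line), KDM2B (5 and 13) and CXXC5 (7 in each line). EHMT1 encodes a histone H3 lysine methyltransferase, KDM2B and CXXC5 proteins with a CXXC domain.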

How the data were processed

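MethylCap-seq region tables of 2 cell lines were used, each line with 1 low salt and 1 high salt library. BWA, MACS2 and the CanFam3.1 assembly are named per the submitters' processing notes, and roles, versions and settings are, in the sources used here, not stated. The fold enrichment is a linear ratio per region, deposited by the authors, whose background is not stated. Region starts, ends, distances to the transcription start and marks were taken as deposited. Positions were read as 1-based, which the tables do not state. The gene column was taken as given, and 2 and 6 rows with displaced cells were given no gene. Regions sharing at least 1 bp were counted as shared (bedtools 2.31.1; checked on made-up regions with known overlaps). A region's percentile is its rank by fold within its list. On the minus strand the table's distance runs to a region's lower coordinate. Starts were derived from the table's distance and strand. Protein-coding symbols came from the dog RefSeq annotation on UU_Cfam_GSD_1.0, used for names only, and all 9 genes matched. The members and lists were chosen with earlier results of these data known. Besides the 9 genes, the text names wider-list genes with a promoter region in exactly 1 list and the 4 with the most regions. Of the 9 genes it gives the marked regions, the highest fold in each list, and the regions in 1 list only for genes with few regions. With 1 library per group no test was made. Read depth per library is unknown. Wilson 95% intervals (statsmodels 0.14.6) and limits from 3 counts cover counting error only, and regions are not replicates. No sequence is shown, since no genome of the build was used here. Python 3.11.15, numpy 2.4.6, pandas 2.3.3 and matplotlib 3.10.9 were used.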

Additional observations from a re-analysis of the deposited data

How the results depend on the processing

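No paired analysis was possible because there are no replicates to pair and nothing was tested. Above the pooled median fold, the genes had 30 and 28 regions, of which 16 and 15 were shared, promoter regions were left for 1 gene in CLBL-1 8.0, and for 5 of the wider list in CLBL-1. With lists of equal length there were 55 CLBL-1 8.0 regions, and 30 CLBL-1 and 29 CLBL-1 8.0 regions were shared. The cause of these differences was not tested. At these cuts, the proportion of all regions that were shared and the proportion of all genes with fewer regions were not computed. Starts within 1000 bp left 1 gene with a promoter region in each line, and positions gave 5 and 6. Differences in number turned negative above the pooled median fold for DNMT1 (-1), UHRF1 (-4), DNMT3A (-6) and MBD2 (-1), and with equal lengths for UHRF1 (-7), DNMT3A (-5) and MBD2 (-1). Counts of shared regions were from 45 to 49 with other overlap rules, and shares outside islands and shores stayed within their intervals. The window by position, the wider list's limits, the alternatives for the fold percentiles and the share by span were chosen after seeing the data. Promoter sequences were planned but not analysed here.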

Other observations

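Among the protein-coding genes with a region within 1 Mb of the TET1 start, 20 of 22 had more regions there in CLBL-1 8.0 and none had fewer. Over all 13458 protein-coding genes with a region in either list, 66.0% had more and 8.98% fewer. RUFY2 and DNA2, a helicase-nuclease gene, had no region in CLBL-1 and 10 each in CLBL-1 8.0, HERC4 had 0 and 8, CCAR1 had 4 and 11, and SIRT1, a deacetylase gene, 1 and 3. Around TET3, 28 of 40 genes had more and none had fewer, with ALMS1 at 3 and 20 and SLC4A5 at 3 and 17. Around UHRF1, 26 of 61 had more and 16 had fewer, among them KDM4B, a histone demethylase gene, at 38 and 33, and PTPRS at 34 and 27. CHAF1A, a subunit of the replication-coupled chromatin assembly factor, had 1 and 5 in the same interval. These genes were picked after their values were seen, and the causes of the regional differences were not tested.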
